A study of Mus musculus with 8 samples.

Results

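The desmosome genes followed here are 10 genes whose products build or border the desmosome: the desmosomal cadherins Dsg2 and Dsc2, the armadillo proteins Jup, Pkp1, Pkp2 and Pkp3, the plakins Dsp, Ppl and Evpl, and the membrane protein Perp. They were chosen by gene symbol in the platform annotation, and all 10 were among the 12393 genes named on the array, on 22 probe sets. A probe set is a group of short probes for one transcript, and it was kept if its signal passed 144.7, the median of all signals, on at least 2 of the 8 arrays. Of the 22 probe sets 17 were kept, which left 9 of the 10 genes for testing among 7340 genes in all. Dsc2 was not tested.

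All arrays held RNA of MCE301, an epithelial line from the colon of mice that carry a temperature-sensitive SV40 large T-antigen transgene. Every group therefore shares that transgene, and the temperature of culture is not given in the labels. Sodium butyrate, the salt of a gut bacterial fatty acid and an inhibitor of histone deacetylases, was given at 2 mM for 0, 6, 12 or 24 h. Each time has 2 arrays, called array 1 and array 2 by the numbers in their titles. Nothing in the labels states that they are separate cultures, so the p-values cover the spread between arrays alone, and that spread may be technical. Without untreated cells kept for 6, 12 or 24 h, butyrate and time in culture cannot be told apart. The RNA is from whole cultures, and fewer cells of one kind cannot be told apart from less RNA per cell.

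Desmosomes are adhesive junctions that tie the keratin filaments of neighbouring epithelial cells together. Desmogleins and desmocollins bind across the gap between cells, plakoglobin and the plakophilins bind their tails in the plaque under the membrane, and desmoplakin links the plaque to keratin. Simple epithelia such as the colon rely on Dsg2 and Dsc2 as their desmosomal cadherins, while Pkp1, Ppl and Evpl are best known from stratified epithelia such as the epidermis.

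The 3 plakophilins held the clearest changes of the family, and they did not share a direction. Pkp1 rose 4.19-fold by 24 h, Pkp2 rose 1.85-fold by 6 h and stayed higher at 12 h and 24 h, and Pkp3 fell 1.68-fold by 12 h. Of the other 6 tested members, Ppl alone was called, higher at 24 h. That Ppl call was lost with some changes in the processing and without any 1 of the 0 h, 12 h or 24 h arrays. Jup, Evpl and Perp were called against 0 h at no time, and Dsg2 was called, lower at 12 h, only with the replicate number as a block. Dsp was called at 24 h by its other 2 kept probe sets but not by the one that represented it, unless only the 0 h and 24 h arrays were fitted. Folds and log2 changes throughout are for log2(signal + 32), which understates the change of low signals, and called means a Benjamini-Hochberg adjusted p under 0.05 over the 7340 genes in limma.

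Counts of called members are to be read against the share of all genes called in the same comparison. At 6 h, 1 of 9 members was called higher and 0 lower, where 9.06% of all tested genes were higher, 6.68% lower and 15.7% either way. At 12 h, 2 members were higher and 1 lower, against 18.1% and 17.5% of all genes and 35.6% either way. At 24 h, 3 members were higher and 1 lower, against 24.6% and 23.5% of all genes and 48.1% either way. The share of members called was thus close to, or below, that of all genes at each time. In limma's F test over the 3 times, 3 of 9 members were called (Pkp1, adjusted p = 0.000357; Pkp2, 0.00319; Pkp3, 0.0214), where 44.7% of all genes were called. The median log2 change of the 9 members was 0.15 at 6 h, -0.14 at 12 h and 0.18 at 24 h, beside 0.01, 0.03 and 0.04 for all genes. An unadjusted p under 0.05 was reached by 3 members at 6 h, 3 at 12 h and 4 at 24 h, beside 30.1%, 45.5% and 54.5% of all genes.

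**Figure D1:**
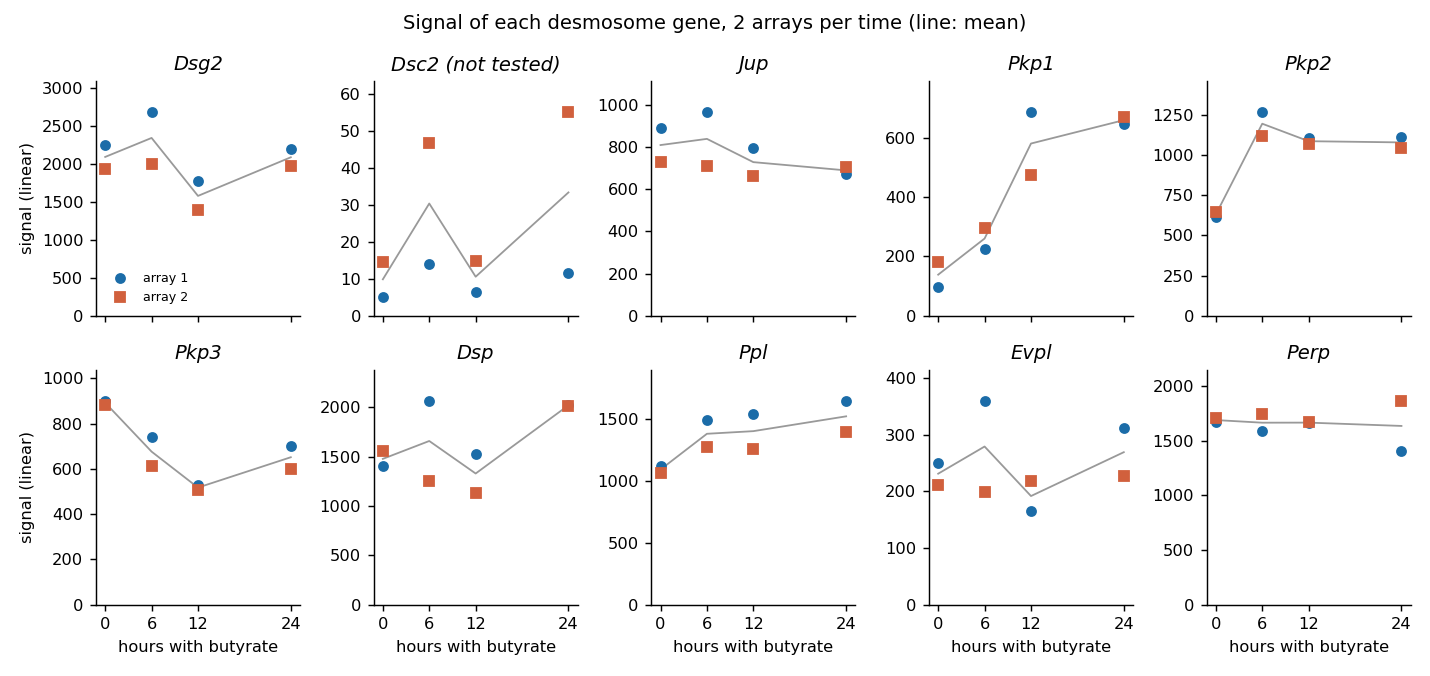
Signal (linear scale, from 0) of each desmosome gene against hours with butyrate, from the probe set that represents the gene, with circles for array 1, squares for array 2 and a line through the mean. Pkp1 and Pkp2 lie above their 0 h arrays at every later time, Pkp3 lies below them, and Dsc2 does not exceed 55.2.

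Neither desmosomal cadherin was called against 0 h in the fit without a block. Dsg2, the desmoglein of simple epithelia, was measured by 6 probe sets, of which 5 were kept. On the representative probe set 1439476_at its signals were 2249.3 and 1939.9 at 0 h, 2692 and 1998.4 at 6 h, 1772.7 and 1388.3 at 12 h, and 2204.4 and 1975.6 at 24 h. The 12 h arrays were the lowest, below both 0 h arrays, and the 24 h arrays lay among those of 0 h. The log2 change was -0.41 ± 0.20 (SE) at 12 h (adjusted p = 0.134 in limma) and 0.00 ± 0.20 at 24 h, with a 95% interval of -0.43 to 0.43. With the replicate number as a block, the 12 h change was called (adjusted p = 0.0412), and so was the step from 6 h to 12 h, a log2 change of -0.55 ± 0.20 (adjusted p = 0.148 without the block and 0.0444 with it). Probe set 1449740_s_at showed the same dip, from 1623.9 and 1311.4 at 0 h to 1291.2 and 1043.2 at 12 h, and was not called. The lower probe sets 1460380_at and 1449741_at had 12 h log2 changes of -0.15 ± 0.16 and 0.06 ± 0.33 in the fit of all kept probe sets. Neither was called, and their 12 h arrays overlapped those of 0 h. Probe set 1425619_s_at stayed low at 24 h, with 231.8 and 304.8 against 349.1 and 392.1 at 0 h (log2 change -0.43 ± 0.19, adjusted p = 0.084 in limma over all kept probe sets). Its interval overlapped that of the representative probe set, and the difference between them was not tested.

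Dsc2, the desmocollin that pairs with Dsg2 in the intestine, was close to the bottom of the signal range. Its probe set 1421156_a_at read 5.1 and 14.6 at 0 h, 13.9 and 46.8 at 6 h, 6.3 and 14.8 at 12 h, and 11.5 and 55.2 at 24 h. Its probe set 1426911_at lay between 1.3 and 21.1 on the 8 arrays. No array exceeded the median on either probe set, and array 2 was the higher array of 1421156_a_at at all 4 times. Fitted without the filter, its log2 change was 0.57 ± 0.37 at 24 h (adjusted p = 0.33), with array groups that overlapped.

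Jup encodes plakoglobin, which binds the cadherin tails in desmosomes and also in adherens junctions. Its signals were 891.8 and 729.2 at 0 h, 969.2 and 710.6 at 6 h, 796.9 and 661.9 at 12 h, and 672.9 and 707.5 at 24 h. Both 24 h arrays were below both 0 h arrays, by a margin smaller than the distance between the 0 h arrays themselves. The log2 change at 24 h was -0.22 ± 0.19 (adjusted p = 0.387 in limma), with a 95% interval of -0.64 to 0.21.

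The plakophilins are armadillo proteins that gather cadherins and desmoplakin into the plaque. Pkp1, the plakophilin of the upper layers of stratified epithelia, has a single probe set, 1449586_at. Its signals were 96.2 and 180.3 at 0 h, 225 and 294.9 at 6 h, 687.3 and 472.5 at 12 h, and 647 and 670.3 at 24 h. Every later array was above both 0 h arrays, and both 12 h arrays were above both 6 h arrays. The mean rose from 138.3 ± 59.5 (SD, n = 2) at 0 h through 260 ± 49.4 and 579.9 ± 152 to 658.7 ± 16.5 at 24 h.

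For Pkp1 the log2 change against 0 h was 0.81 ± 0.26 at 6 h (adjusted p = 0.056 in limma, and 0.0477 with the replicate block). It was 1.87 ± 0.26 at 12 h (adjusted p = 0.00046) and 2.07 ± 0.26 at 24 h (adjusted p = 0.000124), with a 95% interval of 1.50 to 2.63 at 24 h. Both later calls held in all 17 alternatives that gave Pkp1 a value, with a 24 h change of 1.70 to 2.43. The low end of that range came without array 1 of 0 h, the lower of the 0 h arrays, and the high end without array 2 of 0 h. Because an array of 0 h was below the median of all signals, Pkp1 was not tested when every array had to exceed it.

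Pkp2, a plakophilin of simple and stratified epithelia and of heart muscle, has 4 probe sets, of which 2 were kept. On 1429183_at the signals were 616.6 and 644.8 at 0 h, 1270.9 and 1120.6 at 6 h, 1107 and 1066.8 at 12 h, and 1111.9 and 1046.8 at 24 h. All 6 later arrays lay at 1046.8 or above and both 0 h arrays at 644.8 or below, so the level had risen by the first time sampled. The log2 changes were 0.89 ± 0.15 at 6 h (adjusted p = 0.00453 in limma), 0.76 ± 0.15 at 12 h (0.0038) and 0.75 ± 0.15 at 24 h (0.0026). All 3 were called in every one of the 18 alternatives.

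The other kept probe set of Pkp2, 1449799_s_at, gave the same course. It read 402.8 and 533.8 at 0 h, 843.3 and 735.1 at 6 h, 876.1 and 691.1 at 12 h, and 726 and 749.9 at 24 h. When all kept probe sets were fitted, its log2 changes were 0.72 ± 0.19, 0.71 ± 0.19 and 0.63 ± 0.19, and limma called all 3 (adjusted p = 0.0351, 0.0179 and 0.0211). The other pair of Pkp2 probe sets, 1420259_at and 1460511_at, never exceeded 51.5 and 68.2.

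Pkp3, the plakophilin with the widest range in epithelia, moved the other way. On 1418831_at the signals were 901.1 and 883 at 0 h, 741.8 and 610.7 at 6 h, 529.5 and 505.6 at 12 h, and 701.5 and 601.5 at 24 h. All 6 later arrays were below both 0 h arrays, with the lowest at 12 h. The log2 changes were -0.39 ± 0.16 at 6 h (adjusted p = 0.14 in limma), -0.75 ± 0.16 at 12 h (0.00584) and -0.44 ± 0.16 at 24 h (0.0477). The 12 h call held in all 18 alternatives. The 24 h call was lost without any 1 of the 0 h, 12 h or 24 h arrays (adjusted p up to 0.227) and with the smaller pseudocount, with no filter, with all probe sets, with quantile normalization and with only the 0 h and 24 h arrays (0.0502 to 0.105). The second probe set, 1418832_at, was not called, and its signals went from 342.4 and 265.8 at 0 h to 197.5 and 246.9 at 12 h and 198.8 and 257.2 at 24 h, a log2 change of -0.40 ± 0.20 at 12 h (adjusted p = 0.143).

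The difference between the log2 changes of Pkp1 and Pkp3 was 2.62 at 12 h and 2.50 at 24 h, and that between Pkp2 and Pkp3 was 1.51 and 1.18. Between Pkp1 and Pkp2 it was -0.07 at 6 h and 1.32 at 24 h. An exact two-sided permutation test of 2 against 2 arrays cannot go below p = 0.333, so it was no test of these differences, and they were not tested in another way.

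**Figure D2:**
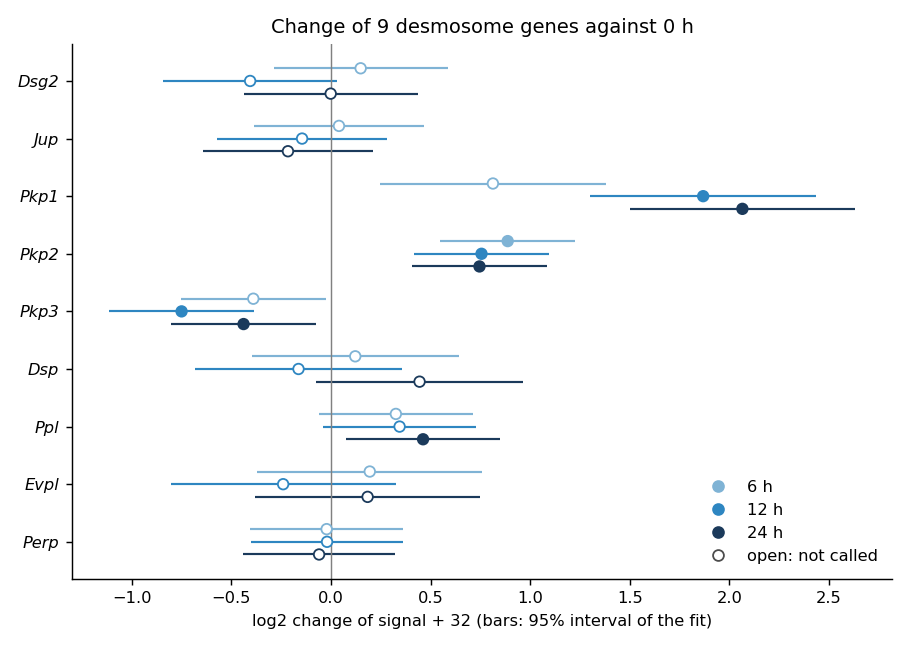
Log2 change of signal + 32 against 0 h for the 9 tested desmosome genes, with 95% intervals of the fit, in 3 shades for 6 h, 12 h and 24 h; filled points are called. The intervals of Pkp1 at 24 h (1.50 to 2.63) and of Pkp2 at all 3 times lie above 0, those of Pkp3 lie below 0, and those of Jup, Evpl and Perp include 0 at every time.

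Dsp encodes desmoplakin, the plakin that anchors keratin filaments at the plaque. On the representative probe set 1435494_s_at its signals were 1401.6 and 1555.7 at 0 h, 2067.8 and 1251.6 at 6 h, 1529.2 and 1131.1 at 12 h, and 2026.3 and 2016.6 at 24 h. The 24 h arrays were above both 0 h arrays and close to each other, while the 6 h arrays lay on both sides of them. The log2 change was 0.44 ± 0.23 at 24 h (adjusted p = 0.145 in limma), with a 95% interval of -0.08 to 0.97. Fitted on the 0 h and 24 h arrays alone, the same change was called (adjusted p = 0.0493). From 12 h to 24 h it was 0.61 ± 0.23 (adjusted p = 0.184).

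The other kept Dsp probe sets were called at 24 h when all kept probe sets were fitted. On 1435493_at the signals were 1274.4 and 1003.3 at 0 h and 2534.3 and 1666.1 at 24 h, a log2 change of 0.84 ± 0.31 (adjusted p = 0.0474 in limma). On 1427610_at they were 244.4 and 177.1 at 0 h and 363.4 and 336.4 at 24 h, a log2 change of 0.67 ± 0.18 (adjusted p = 0.0136). All 3 probe sets were thus higher at 24 h, but they read 1 gene on the same arrays and are not independent. The mean over them was called as well, with a log2 change of 0.65 (adjusted p = 0.0168). The call of 1427610_at was lost without array 2 of 0 h (0.116) or array 1 of 24 h (0.0701), and that of 1435493_at without any 1 of the 0 h and 12 h arrays or array 1 of 24 h (0.0545 to 0.269).

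**Figure D3:**
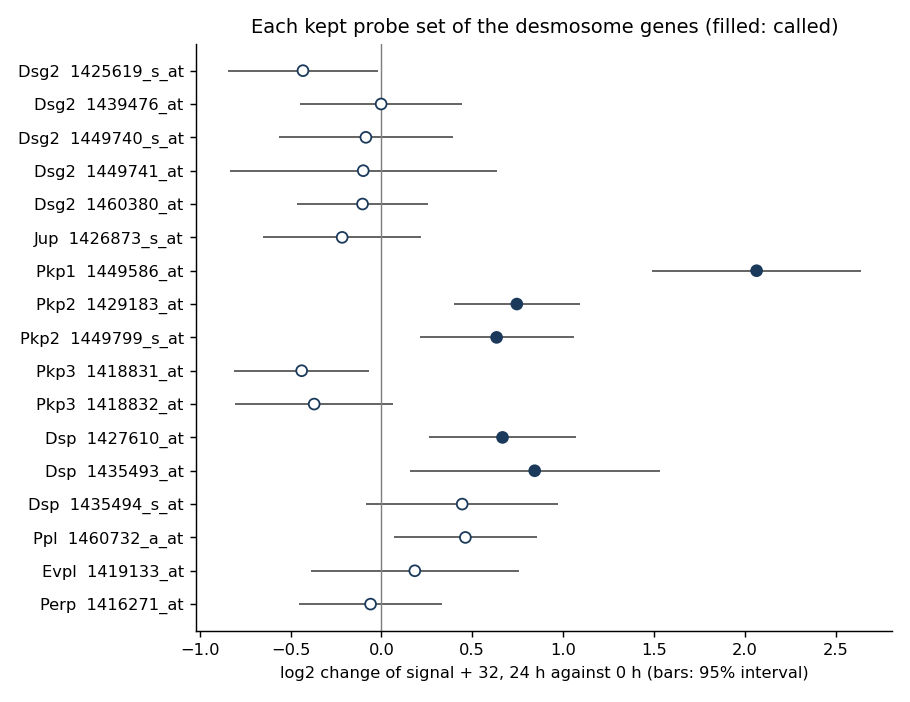
Log2 change of signal + 32 at 24 h against 0 h, with 95% intervals, for each of the 17 kept probe sets of the desmosome genes in a fit of all kept probe sets; filled points are called there. The 3 Dsp probe sets lie between 0.44 and 0.84 and both Pkp2 probe sets above 0.6, while those of Dsg2 lie between -0.43 and 0.00.

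Ppl and Evpl encode periplakin and envoplakin, plakins that pair with each other and take part in the cornified envelope of skin. Ppl (1460732_a_at) read 1120.4 and 1058.5 at 0 h, 1484.1 and 1270.1 at 6 h, 1538.5 and 1258.1 at 12 h, and 1643.4 and 1391.8 at 24 h. All 6 later arrays were above both 0 h arrays. The log2 changes were 0.33 ± 0.17 (adjusted p = 0.242 in limma), 0.34 ± 0.17 (0.149) and 0.46 ± 0.17 (0.0488), so that the gene was called at 24 h alone, at 1.38-fold.

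The Ppl call at 24 h was lost without any 1 of the 0 h, 12 h or 24 h arrays (adjusted p of 0.0516 to 0.236). It was lost too with the smaller pseudocount, with no filter, with all kept probe sets and with only the 0 h and 24 h arrays (0.0504 to 0.111). Evpl (1419133_at) was not called. It read 250.6 and 212.2 at 0 h, 360.2 and 198.5 at 6 h, 165.9 and 218 at 12 h, and 311.3 and 227.4 at 24 h. Its groups overlapped in every comparison with 0 h, and its log2 change at 24 h was 0.18 ± 0.25, with a 95% interval of -0.38 to 0.75. The interval includes the change of Ppl, so these arrays do not show that the pair differed.

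Perp, a tetraspan membrane protein that is a target of p53 and p63 and is needed for desmosomes in skin, had the flattest course. Its signals were 1665.7 and 1708.9 at 0 h, 1586.1 and 1740.4 at 6 h, 1661.6 and 1666.3 at 12 h, and 1403.2 and 1864 at 24 h. The 24 h arrays stood on both sides of all the others. The log2 change at 24 h was -0.06 ± 0.17 (adjusted p = 0.8 in limma), with a 95% interval of -0.44 to 0.32, which leaves room for a change of that size in either direction.

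From 6 h on, few genes were called between neighbouring times. From 6 h to 12 h, 1 of 9 members, Pkp1, was called higher, with a log2 change of 1.06 ± 0.26 (adjusted p = 0.0482 in limma), where 2.03% of all genes were higher and 2.14% lower. That call was lost without any 1 of the 6 h, 12 h or 24 h arrays (adjusted p = 0.0662 to 0.229) and in 4 other alternatives. From 12 h to 24 h limma called 0 members, and 1, Dsp, had an unadjusted p under 0.05, as had 19.4% of all genes. In that step 1.81% of all genes were higher and 3.58% lower. Pkp3 had a log2 change of 0.31 ± 0.16, which was not called (adjusted p = 0.345), and Pkp1 and Pkp2 differed by 0.20 ± 0.26 and -0.01 ± 0.15.

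The spread between the arrays of a time was not the same for all members. At 6 h, 7 of the 9 tested members were higher on array 1, by a log2 difference of 0.77 for Evpl, 0.71 for Dsp, 0.43 for Jup and 0.42 for Dsg2. Pkp1 and Perp were the exceptions, at -0.35 and -0.13. The median absolute difference of the members was 0.347 at 6 h, where that of all tested genes was 0.21, and 0.284 against 0.186 at 12 h. At 0 h it was 0.147 against 0.176, and at 24 h 0.156 against 0.192. Several 6 h values therefore rested on array 1, and without it the 6 h changes of Dsp, Dsg2, Jup and Evpl turned from above 0 to below it (-0.23, -0.06, -0.18 and -0.19).

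**Figure D4:**
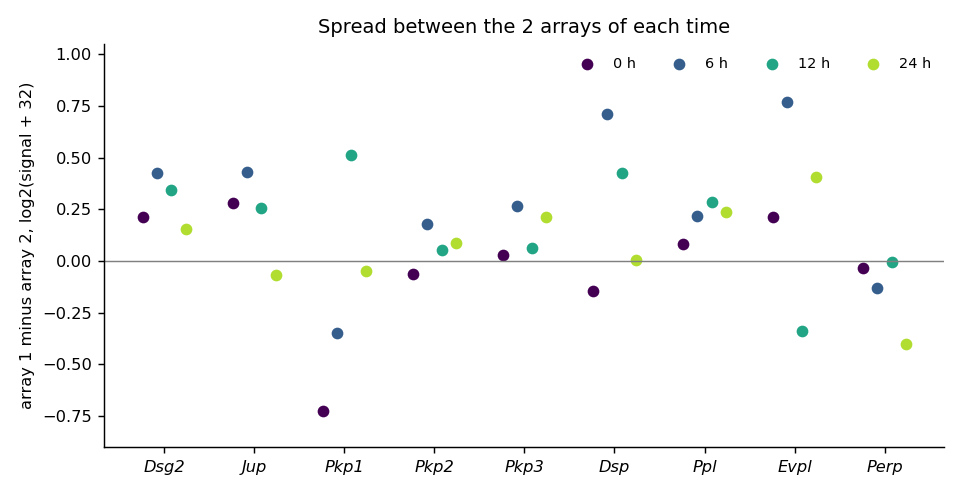
Difference between array 1 and array 2 of the same time, in log2(signal + 32), for each tested desmosome gene, with colours for the 4 times. At 6 h Evpl and Dsp stand at 0.77 and 0.71, and Pkp1 at 0 h is the lowest point at -0.73.

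As a description over the 8 arrays, which share their 4 times, Pkp2 and Ppl correlated at r = 0.82, Pkp1 and Ppl at 0.74 and Pkp1 and Pkp2 at 0.69. Pkp3 ran against Pkp1 (r = -0.80) and Pkp2 (-0.71). Dsg2 correlated with Evpl (0.70), Dsp (0.68) and Jup (0.68), genes whose array 1 was above array 2 at 6 h. Outside the family, the 5 tested genes whose course was most like that of Pkp1 were Lynx1 (r = 0.994), Dop1b (0.990), Gcnt1 (0.987), Tmem184c (0.985) and Cfap36 (0.984). Lynx1 rose from 162.8 ± 43.6 to 686 ± 23.9 at 24 h, a log2 change of 1.90. These genes were picked by their likeness to Pkp1 on the same arrays, so a rise was built into the choice and is no separate result. Gcnt1 passed the filter only through arrays of 12 h and 24 h, where it was high. In all, 379 tested genes had r above 0.9 with Pkp1.

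Of the remaining desmosomal cadherins and plaque proteins, 3 of 8 were named on the array by a probe set of their own and Pkp4 alone was tested. Pkp4, a plakophilin relative also found at adherens junctions, had a log2 change of 0.24 ± 0.16 at 24 h (adjusted p = 0.247 in limma). Dsc1 and Dsc3, the desmocollins of stratified epithelia, never exceeded signals of 40.4 and 64.4.

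The other plakins split at 24 h, with 1 of 4 called higher and 1 lower. The counts of this list and of those below stand beside 24.6% of all genes higher and 23.5% lower at 24 h. Plec, plectin, which links intermediate filaments to junctions and the cytoskeleton, rose by 0.89 ± 0.19 on the log2 scale (adjusted p = 0.00296 in limma), its mean going from 2601 ± 276 to 4862 ± 836. Eppk1, epiplakin, which binds keratins, went down by a log2 change of -1.46 ± 0.24 (adjusted p = 0.00071), with means of 292.7 ± 17.5 at 0 h and 88.3 ± 33.8 at 24 h. The median of the list was 0.25, beside 0.04 for all genes. Of the simple epithelial keratins, the filaments that desmosomes hold in this tissue, 3 of 5 tested were higher at 24 h and 0 lower. Krt19 and Krt7 were not called, at log2 changes of 0.45 and -0.41 (adjusted p = 0.131 and 0.0612 in limma). Krt20, a keratin of differentiated intestinal cells, rose 10.9-fold, Krt8 1.59-fold (adjusted p = 0.00614 in limma) and Krt18 1.56-fold (0.0201). The median of the keratins was 0.64, and the Krt18 call was lost with no filter (0.062) and without array 1 of 0 h (0.117) or array 2 of 24 h (0.147).

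In adherens junctions, the neighbouring actin-linked contacts, 3 of 7 tested genes were higher at 24 h and 1 lower, with a median of 0.39. Vcl, vinculin, which links cadherin complexes to actin, rose 2.20-fold (adjusted p = 0.000756 in limma). Cdh1, E-cadherin, rose by 0.51 ± 0.18 on the log2 scale (adjusted p = 0.0438), with means of 1150 ± 121 at 0 h and 1644 ± 138 at 24 h. The Cdh1 call was lost with no filter (0.106), with all kept probe sets (0.0505) and without any 1 of the 0 h or 24 h arrays (0.0686 to 0.21). Nectin2, an immunoglobulin-like adhesion protein, rose by 0.53 ± 0.15 on its representative probe set but stood at -0.15 when its kept probe sets were averaged, so its direction rests on the probe set. Its call was lost also without array 1 of 0 h or either 24 h array (0.0604 to 0.0952). Ctnnd1, p120-catenin, which holds cadherins at the membrane, fell by 0.64 ± 0.22 on the log2 scale (adjusted p = 0.0326), a call lost with no filter (0.0924) and without any 1 of the 0 h or 24 h arrays (0.0537 to 0.179).

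Of 16 genes known to regulate desmosomes or their shedding and crosslinking, 9 were tested, and at 24 h 1 was higher and 2 lower, with a median of -0.02. Adam17, a membrane protease that sheds desmogleins, rose by 0.95 ± 0.20 on the log2 scale (adjusted p = 0.00293 in limma), its mean going from 580.4 ± 40.2 to 1163 ± 231. Tgm1, a transglutaminase that crosslinks envelope proteins such as periplakin and envoplakin, fell by 1.24 ± 0.19 (adjusted p = 0.000493). Grhl2, a grainyhead transcription factor of epithelial junction genes, fell by 0.57 ± 0.18 (0.0217), a call lost with no filter (0.0618) and without either 0 h array or array 2 of 24 h (0.0665 to 0.176). The repressors Snai1, Snai2, Zeb1 and Zeb2 and the activators Grhl1 and Trp63 had no array group high enough to be tested, with highest signals of 91.8, 54.3, 135.5, 88.6, 120.5 and 68.2. Of 7 tested targets of p53, the factor that also controls Perp, 1 was higher at 24 h and 0 lower. It was Gadd45a, a growth arrest and DNA damage gene, with a log2 change of 1.13 ± 0.22 (adjusted p = 0.0018). Cdkn1a, the p21 cell cycle inhibitor, was at 0.05 ± 0.18.

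**Figure D5:**
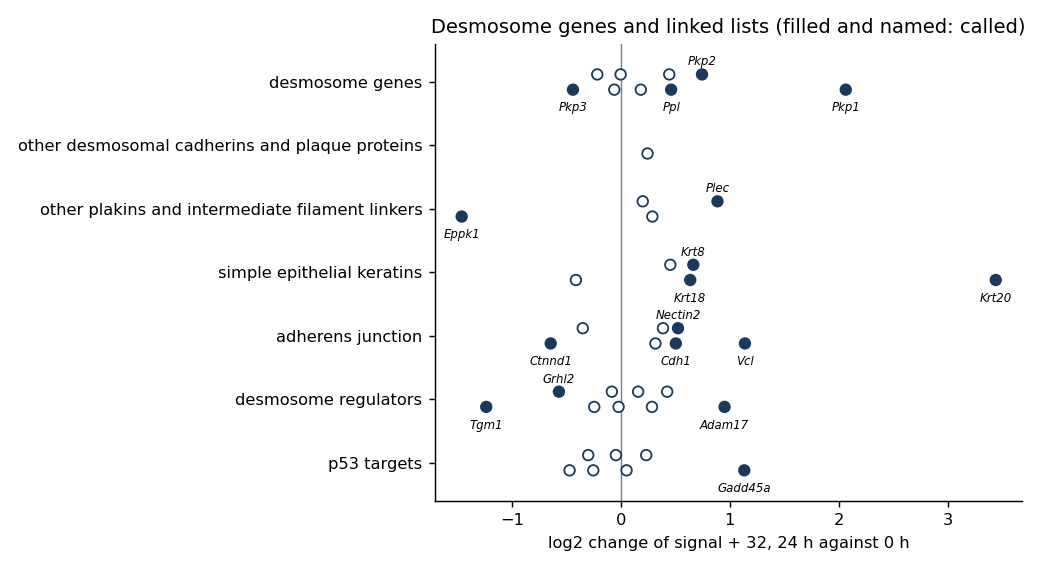
Log2 change of signal + 32 at 24 h against 0 h of the tested desmosome genes and of 6 lists of linked genes, 1 point per gene; filled and named points are called. Calls lie on both sides of 0 among the desmosome genes, plakins, adherens junction genes and regulators, and above 0 only among the keratins and the p53 list, where Krt20 is farthest at 3.44.

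The labelled cell type was set against marker lists. Of 12 colonic epithelial markers 8 were tested, and Epcam, Krt8, Krt18, Krt19 and Cdh1 were high on every array. Vil1, Slc26a3 and Lgals4, which mark mature colonic epithelium, stayed at or under 40.7, 45.1 and 114.4. Of the intestinal transcription factors Cdx1 and Cdx2, Cdx1 never exceeded 7. Cdx2 read 511.7 and 457.9 at 0 h and 284.4 and 284.2 at 24 h (log2 change -0.71, adjusted p = 0.0146 in limma). Car2, a carbonic anhydrase of the colon, was not called at 24 h (-0.37, adjusted p = 0.0575). In all, 4 of the 8 were higher at 24 h and 1 lower, beside 24.6% and 23.5% of all genes. The summed level of the list was 47881 to 50826 at 0 h and 73536 to 90243 at 24 h. At 24 h its largest terms were Krt18, Krt19, Krt20 and Krt8, with means of 23843, 16917, 15293 and 14830. The sum thus mainly follows these keratins. Pkp1, Ppl and Evpl are also genes of stratified squamous epithelium, so that list bears on them. Of its 8 markers 7 were on the array and 2 tested, and its summed level was 541.5 to 557.8 at 0 h, 349.1 to 379.2 at 6 h, 617.8 to 647.1 at 12 h and 720.8 to 794.2 at 24 h. The squamous sum, to which low untested signals also add, was thus lower at 6 h and higher at 24 h. Krt10, a tested keratin of the list, had means of 191.1 at 0 h, 116.6 at 6 h and 279.6 at 24 h. It was not called (log2 change -0.59 at 6 h and 0.49 at 24 h, adjusted p = 0.0589 and 0.0547 in limma). Krt1, a keratin of the list too low to be tested, went down, from 43.5 and 57.6 at 0 h to 6.7 and 6.9 at 24 h. Krt5, a basal keratin, read 97.4 and 164.4 at 0 h and 319.4 and 319.2 at 24 h (log2 change 1.14, adjusted p = 0.00239 in limma), while Krt14, Krt15 and Trp63, which define the basal layer, never exceeded 92.1, 9.4 and 68.2.

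Mesenchymal markers moved in both directions. Vim, vimentin, rose from 6.8 and 8.2 to 314.3 and 317.9, and Cdh2, N-cadherin, fell from 2684 and 2898.5 to 936.3 and 818.2, the summed list going from 3024 to 3349 at 0 h to 1519 to 1728 at 24 h. Of the 10 genes of that list all were on the array and 2 tested, Vim and Cdh2. Vim passed the filter only through its 24 h arrays, where it was high. The collagens Col1a1, Col1a2 and Col3a1 never exceeded 87.5, 121.1 and 58. Of 6 immune markers 5 were on the array and 1 was tested, Cd68, which rose from 423.6 and 425.2 to 1040.8 and 1119.4 while Ptprc never exceeded 109.4. The summed immune list, most of it Cd68, was 593.6 to 594.3 at 0 h and 1296 to 1322 at 24 h. None of the 4 endothelial markers passed the filter, with sums of 86.2 to 160.5 at 0 h and 190.3 to 225.8 at 24 h. The part of these marker changes in the results above was not tested.

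Promoter sequence was at hand for 2 members, Jup and Dsp, in the RefSeq table of build GRCm38.p6. They are shown because they are the only members with an entry, and the stretch printed ends before the gene's start. Capitals mark matches, on either strand, to GGGCGG, the GC box of Sp and Klf factors, or to CCAAT, the NF-Y motif. The Jup stretch, chr11:100397840-100398040 on the minus strand, has 201 bases and 60.2% GC. The Dsp stretch, chr13:38151044-38151293 on the plus strand, has 250 bases and 72.4% GC.
Jup: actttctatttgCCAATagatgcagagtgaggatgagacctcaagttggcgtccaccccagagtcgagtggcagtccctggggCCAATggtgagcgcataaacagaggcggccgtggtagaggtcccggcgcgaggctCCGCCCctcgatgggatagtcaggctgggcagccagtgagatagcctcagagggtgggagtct
Dsp: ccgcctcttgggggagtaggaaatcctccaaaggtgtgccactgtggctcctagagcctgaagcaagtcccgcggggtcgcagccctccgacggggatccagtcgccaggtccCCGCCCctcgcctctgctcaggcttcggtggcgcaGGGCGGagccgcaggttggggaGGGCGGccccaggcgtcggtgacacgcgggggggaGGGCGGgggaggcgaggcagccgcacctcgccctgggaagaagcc
Jup holds 1 GC box and 2 CCAAT matches, and Dsp 4 GC boxes and no CCAAT. All 32851 RefSeq promoters were cut to the same length, taking the first bases of each. At the length of Jup 24.8% hold a GC box and 28.6% a CCAAT, and at that of Dsp 32.7% and 33.9%. The cuts match Jup in length but need not end at the gene's start, as the Jup stretch does. TGANTCA (AP-1), CAGGTG (the E-box of Snail and Zeb) and AACCGG (the grainyhead core) were not in either stretch, and are in 5.59%, 14.5% and 4.29% of promoters at the Jup length and 6.75%, 17.2% and 5.62% at the Dsp length. The matches describe letters and no binding was measured. Dsg2, Dsc2, Pkp1, Pkp2, Pkp3, Ppl, Evpl and Perp had no entry.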

How the data were processed

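Phycoerythrin-labelled total RNA of MCE301 cells was read on 8 Affymetrix 430A mouse arrays, per the labels. The deposited table gives a linear signal intensity for each of 22690 probe sets per array, with no detection calls; the summarising software was not given in the sources used here. The authors' deposited intensities were used as they stand: the 2% trimmed mean was 500.2 on every array, medians were 140.1 to 152.8, and 21.2% to 26.5% of signals lay below the pseudocount of 32. Arrays have no read depth, and their number, 2 per time, limits the precision.

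Of the probe sets, 64 were controls, 20380 had 1 gene in the platform annotation, 691 several and 1555 none listed, and only those with 1 gene were named. Symbols were checked in the RefSeq table of GRCm38.p6, which changed 0 of them. A probe set was kept with at least 2 of 8 arrays above 144.7, which left 11505, and the kept probe set with the highest mean represented its gene. All 8 arrays were fitted on log2(signal + 32) with lmFit and eBayes in limma 3.58.1 (R 4.3.3), with 4 residual and 6.37 prior degrees of freedom, and p-values were adjusted over 7340 genes. The fit was tested on simulated data.

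Array numbers are shared by the 4 times. Over genes, array 1 minus array 2 at one time correlated with the same difference at another at r = 0.125 to 0.382 in all 6 pairs of times. All were over 0.1, the limit set for this check, so array numbers may pair the arrays. The labels do not state such a pairing, and the check does not settle it. The fit behind the reported p-values has no block for the array number, and the block was run as an alternative. Arrays of the same time had r = 0.978 to 0.982. The Gapdh 3' to 5' ratio was 0.767 to 0.878. All 10 members were named, with the called genes of each linked list at 24 h, at most 4 in each direction, and the 5 genes closest to Pkp1; genes named beyond that, the marker genes among them, were chosen after their values were seen. The members and lists were chosen with earlier results of these data known. Alternatives were the pseudocount, filter, probe set rule, normalization, replicate block, prior, arrays fitted and each array left out.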

Additional observations from a re-analysis of the deposited data

How the results depend on the processing

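Of 18 alternatives, 8 leave out 1 array. In every one that gave a value, Pkp1 at 12 h and 24 h, Pkp2 at all 3 times and Pkp3 at 12 h stayed called in the same direction. The count at 6 h went from 1 to 2, with Pkp1 added, under the replicate block and with a trended, robust prior. The count at 24 h went from 4 to 2, leaving Pkp1 and Pkp2, with a pseudocount of 16, with no filter and with all kept probe sets. With only the 0 h and 24 h arrays Dsp was called (0.0493) and Pkp3 and Ppl were not. From 6 h to 12 h the count went from 1 to 0 with a pseudocount of 16, no filter, every array above the median, all kept probe sets or only the arrays compared, and to 2 under the block, with Dsg2 added. The block also added Dsg2 at 12 h against 0 h and changed no other call of a member against 0 h or between neighbouring times; in the F test it gave 4 members in place of 3. With 1 array left out, counts were 1 to 2 at 6 h, 3 to 3 at 12 h, 2 to 4 at 24 h, 0 to 1 from 6 h to 12 h and 0 to 0 from 12 h to 24 h, and 2 to 4 in the F test; a time left with 1 array is assumed to vary like the others. The cause was not tested. Counts over all genes moved as well. From 6 h to 12 h, 149 higher and 157 lower genes became 0 and 1 of 12393 with no filter, 105 and 96 with all kept probe sets, 32 and 14 with only the arrays compared, and 267 and 314 under the block. From 12 h to 24 h, 133 and 263 became 29 and 88 with no filter and 249 and 377 under the block, and at 6 h 665 and 490 became 272 and 158 with no filter. With 1 array left out, the genes called higher were 299 to 610 at 6 h, 879 to 1352 at 12 h, 1332 to 1837 at 24 h, 24 to 106 from 6 h to 12 h and 26 to 135 from 12 h to 24 h.

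One called change turned sign: Nectin2 at 24 h stood at -0.15 when its probe sets were averaged, which was not called. The others that turned sign were not called. Quantile normalization put Pkp2 from 12 h to 24 h at 0.010. With 1 array left out, log2 changes of both signs were reached as follows. At 6 h Dsp ran from -0.23 to 0.48, Dsg2 from -0.063 to 0.36, Jup from -0.18 to 0.26, Evpl from -0.19 to 0.58 and Perp from -0.087 to 0.044. At 12 h Dsp ran from -0.38 to 0.049. At 24 h Dsg2 ran from -0.11 to 0.10, Evpl from -0.018 to 0.39 and Perp from -0.26 to 0.14. From 6 h to 12 h Dsp ran from -0.64 to 0.070, Jup from -0.40 to 0.030, Ppl from -0.12 to 0.16 and Perp from -0.064 to 0.068. From 12 h to 24 h Pkp1 ran from -0.059 to 0.45, Pkp2 from -0.052 to 0.032, Jup from -0.20 to 0.057, Ppl from -0.024 to 0.26 and Perp from -0.24 to 0.16. The fits of single Dsp probe sets with 1 array left out were chosen after seeing the data. Dsc2, with signals of at most 55.2, is too close to the bottom of the range for its course to be read.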
